A study of Mus musculus with 8 samples.

Results

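A set of 8 genes that mark the cerebellum, midbrain or hindbrain was followed over neonatal cortex, neonatal cerebellum and whole embryonic brain, through the 12 probe sets that carry their symbols. These were Tfap2b, Pax7, Pou4f1, Shox2, Lhx9, Zic1, Cnpy1 and C1ql2, among 22511 probe sets and 6902 single-symbol genes that were bright enough to test. The genes were chosen by measured values of these same arrays. Tfap2b, Pax7, Pou4f1, Shox2, Cnpy1 and C1ql2 were selected on their difference between neonatal cortex and cerebellum. Lhx9 and Zic1 were selected on their difference between the parental duplications. Those differences are given below as description, without a test.

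RNA of T9H/+ mice, heterozygous for a reciprocal translocation of chromosomes 7 and 15, was hybridised to 8 Affymetrix 430B arrays, 1 per group. Every animal therefore carried the translocation, and none of the 8 groups was a wild type. In each of the 4 contexts, which were neonatal cortex (forebrain), neonatal cerebellum, and whole brain at 15.5 and at 13.5 days post coitum (dpc), 1 array came from mice with matdup proximal Chr 7 together with patdup proximal Chr 15. These arrays are called maternal-7 here. The other array of each context came from mice with the reverse, patdup proximal Chr 7 and matdup proximal Chr 15, and is called paternal-7. Both chromosome regions changed parent together, so their parts cannot be told apart. There were no biological replicates. Strain, sex and the number of animals behind each RNA are not given in the sources used here, so p-values reflect how single arrays vary, which may be technical. None of the 8 genes lies on chromosome 7 or 15.

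During brain development the junction of midbrain and hindbrain, the isthmus, sends out FGF8 and divides the neural tube into a midbrain in front and a cerebellum behind. Cerebellar neurons come from the rhombic lip, which gives granule cells and nuclear neurons, and from the ventricular zone, which gives inhibitory neurons, while the dorsal midbrain forms the colliculi. Transcription factors that mark these territories are mostly silent in the cerebral cortex, and many are shared with the dorsal spinal cord, sensory ganglia or tissue of the head.

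Tfap2b (an AP-2 factor of inhibitory neuron precursors in cerebellum and midbrain) and Pax7 (a paired homeodomain factor of the dorsal midbrain) had the most alike patterns of any members over the 8 arrays. The 250 bases before their RefSeq start sites (GRCm38.p6) are shown with those of Zic1, the member whose pattern departed most, and of Pou4f1, a second window that held a searched word. The Tfap2b window is chr1:19211804-19212053 on the plus strand. The others lie on the minus strand, Pax7 at chr4:139832969-139833218, Zic1 at chr9:91365769-91366018 and Pou4f1 at chr14:104468000-104468249. Each is written 5′ to 3′, and capitals mark a match to a searched word.
Tfap2b: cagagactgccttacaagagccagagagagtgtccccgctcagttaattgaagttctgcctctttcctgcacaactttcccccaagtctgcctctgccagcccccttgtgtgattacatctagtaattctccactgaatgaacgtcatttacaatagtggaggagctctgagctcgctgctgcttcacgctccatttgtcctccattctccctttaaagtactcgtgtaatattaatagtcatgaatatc
Pax7: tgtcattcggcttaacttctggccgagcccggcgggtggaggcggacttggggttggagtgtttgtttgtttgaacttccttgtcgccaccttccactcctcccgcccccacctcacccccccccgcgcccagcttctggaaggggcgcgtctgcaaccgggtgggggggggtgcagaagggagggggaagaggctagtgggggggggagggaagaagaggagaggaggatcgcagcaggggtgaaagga
Zic1: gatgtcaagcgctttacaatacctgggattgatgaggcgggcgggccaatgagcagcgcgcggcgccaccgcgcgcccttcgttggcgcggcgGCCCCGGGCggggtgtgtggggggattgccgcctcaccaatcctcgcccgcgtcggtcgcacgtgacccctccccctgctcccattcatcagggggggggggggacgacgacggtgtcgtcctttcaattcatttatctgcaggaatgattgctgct
Pou4f1: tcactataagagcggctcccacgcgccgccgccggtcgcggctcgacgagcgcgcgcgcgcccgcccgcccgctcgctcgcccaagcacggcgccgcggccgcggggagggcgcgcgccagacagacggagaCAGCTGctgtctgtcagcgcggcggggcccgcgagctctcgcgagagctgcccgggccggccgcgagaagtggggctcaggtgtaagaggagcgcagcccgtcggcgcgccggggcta

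RefSeq gave 9 such windows for the 8 genes, since Cnpy1 had 2. The 3 palindromic words, which read the same on both strands and do not overlap one another in these matches, were those searched. The AP-2 word GCCNNNGGC was in 1 of the 9 windows, that of Zic1 at position 94, and in 13.73% of all 32851 windows of this length. The E-box CAGCTG was likewise in 1 of 9, that of Pou4f1 at position 133, and in 13% of all. TAATTA, a core read by many homeodomain factors, was in 0 of 9 and in 4.84% of all. Tfap2b and Pax7 shared none of these words, and their windows differed in composition, with 46.4% and 65.2% G or C.

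Values are MAS5 signals on a linear scale, and log2 differences were taken on log2(signal + 58.5). The pseudocount of 58.5 makes differences between dim signals smaller than their ratios. A signal is called dim here when it lay below its array's median, which ran from 229.8 to 285.7. All 12 probe sets passed the filter of at least 2 arrays above the median, with 13221 of 22511 probe sets passing in all, and Cnpy1 C, 1 of the 12, passed only through its cerebellum arrays. Arrays of the same context correlated over tested probe sets at 0.906 at 13.5 dpc, 0.891 at 15.5 dpc, 0.949 in cerebellum and 0.953 in cortex. The duplication labels were checked with Snhg14, a chromosome 7 transcript made from the paternal copy. Its 3 probe sets read between 0.262 and 38.8 on maternal-7 arrays and between 131 and 2372 on paternal-7 arrays. Forebrain markers fitted the cortex label, with 7 of 7 above 0 in cortex minus cerebellum and 3 of them called. The cerebellum label had little to check it: only 3 of 14 listed cerebellar markers were measured, and Cbln3 and Car8 were each above the median on 1 array.

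Of the 8 genes, 7 read higher in cerebellum than in cortex on both pairs of arrays, and Zic1 did not. Tfap2b read 339 and 363 in cortex, 7313 and 6639 in cerebellum, 2467 and 1036 at 15.5 dpc, and 2352 and 1912 at 13.5 dpc, the maternal-7 array first in each pair. Both cerebellum arrays stood above all others and both cortex arrays below all others, while the embryonic ages overlapped. Cortex minus cerebellum gave a log2 difference of -4.10 ± 0.32 (moderated SE, n = 2 arrays each). Pax7 read 22.5 and 23.6 in cortex, 1393 and 912 in cerebellum, 507 and 141 at 15.5 dpc, and 346 and 334 at 13.5 dpc. Cortex signals were dim on both arrays, so cerebellum was at least 4.84-fold higher, counting a dim signal at its array's median (fitted log2 difference -3.86 ± 0.37). The order of contexts was the one seen for Tfap2b.

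**Figure D1:**
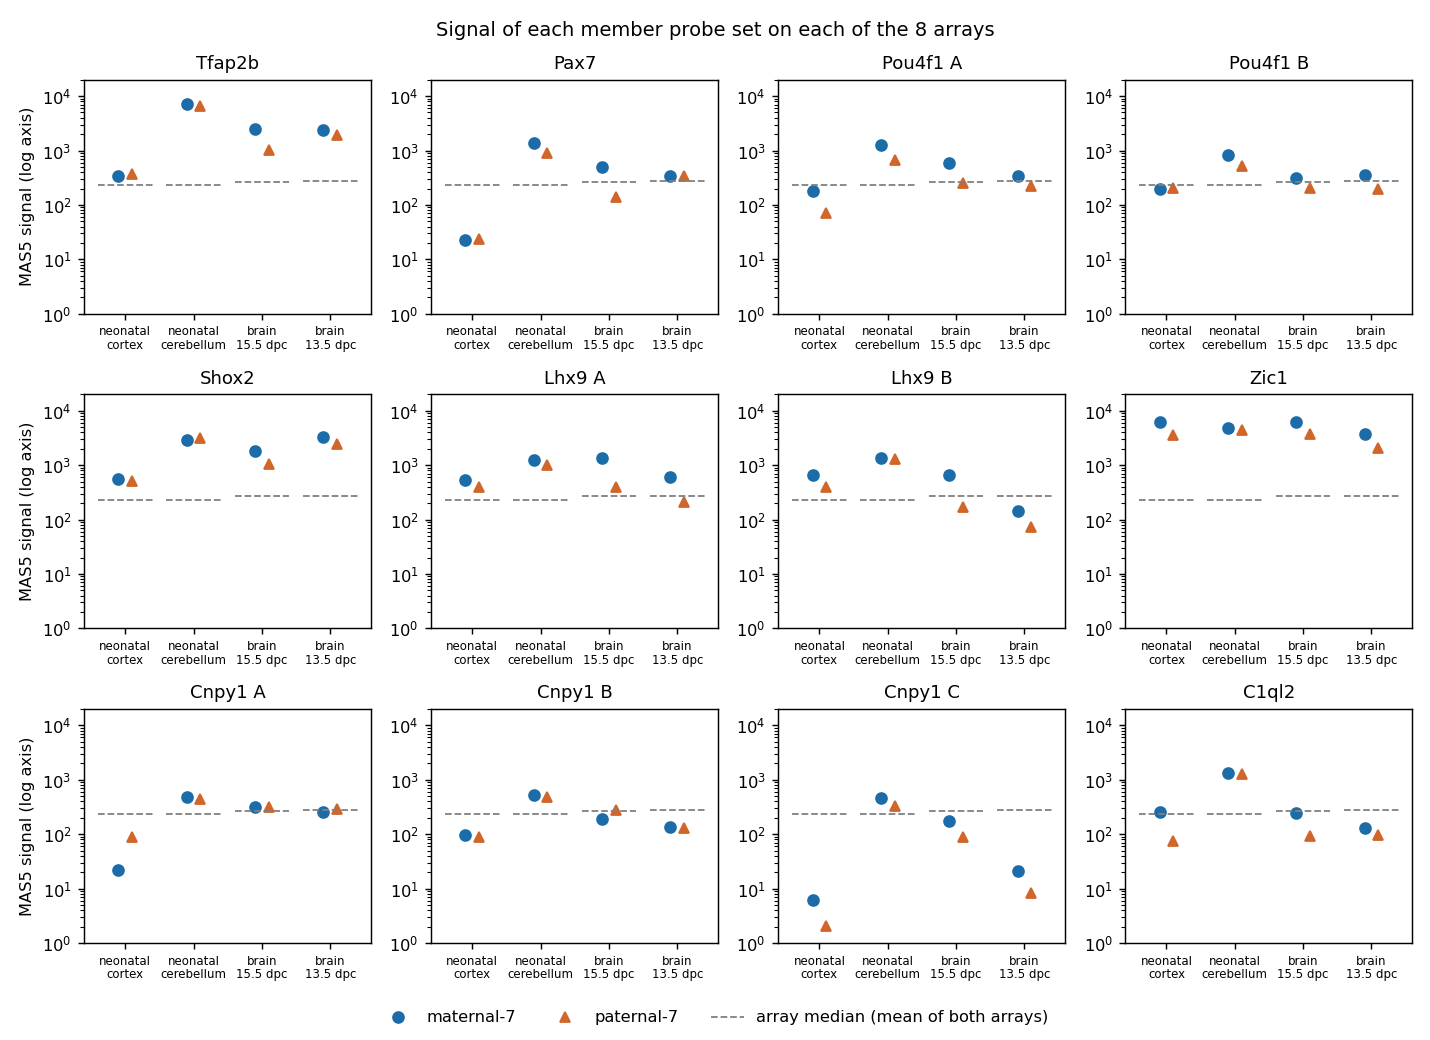
MAS5 signal (log axis) of each of the 12 probe sets on each of the 8 arrays, by context, with circles for maternal-7, triangles for paternal-7 and a dashed line at the array median averaged over the pair. In 9 of the 12 probe sets both cerebellum arrays lie above the other 6, while Shox2, Lhx9 A and Zic1 differ from that pattern.

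Shox2 (a homeodomain factor of limb, palate, heart pacemaker and brainstem neurons) differed from Tfap2b and Pax7 at the earlier age. Its signals were 556 and 513 in cortex, 2922 and 3168 in cerebellum, 1816 and 1049 at 15.5 dpc, and 3290 and 2479 at 13.5 dpc. Whole brain at 13.5 dpc, at 2885 ± 573 (SD, n = 2), overlapped the cerebellum at 3045 ± 174, and both stood apart from 15.5 dpc and from cortex. Cortex minus cerebellum was -2.39 ± 0.25 on the log2 scale.

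Pou4f1 (a POU factor of sensory neurons, habenula and midbrain) was read by a pair of probe sets. Set A gave 180 and 72.1 in cortex, 1246 and 657 in cerebellum, 584 and 255 at 15.5 dpc, and 343 and 226 at 13.5 dpc. Set B gave 195 and 207, 819 and 509, 317 and 205, and 361 and 200 in the same order. In both sets the cerebellum arrays were the highest and all cortex signals were dim, with cerebellum at least 3.88-fold higher in set A and at least 2.77-fold in set B. The ages overlapped in both.

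Lhx9 (a LIM homeodomain factor of cerebellar nuclei, thalamus and dorsal interneurons) also had a pair of sets. Set A read 542 and 403 in cortex, 1240 and 1007 in cerebellum, 1357 and 402 at 15.5 dpc, and 615 and 208 at 13.5 dpc. Set B, of a class whose probes can match other transcripts, read 663 and 394, 1377 and 1280, 665 and 168, and 141 and 72.5. The maternal-7 array at 15.5 dpc exceeded both cerebellum arrays in set A but neither in set B. Cortex minus cerebellum was -1.16 ± 0.36 in set A and -1.28 ± 0.36 in set B, with no overlap in either.

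Zic1 (a zinc finger factor of granule cell precursors that is also made in forebrain midline and meninges) read 6283 and 3646 in cortex, 4795 and 4437 in cerebellum, 6148 and 3769 at 15.5 dpc, and 3727 and 2103 at 13.5 dpc. Cortex bracketed cerebellum, and the log2 difference was 0.05 ± 0.23. On these arrays Zic1 therefore did not separate cerebellum from cortex, whatever its name as a cerebellar gene. Its means in cortex (4965), at 15.5 dpc (4959) and in cerebellum (4616) overlapped, and 13.5 dpc was lowest at 2915.

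Cnpy1, a canopy protein known in zebrafish for FGF signalling at the midbrain-hindbrain boundary, was read by 3 sets. Set A gave 21.8 and 89.1 in cortex, 487 and 444 in cerebellum, 310 and 312 at 15.5 dpc, and 251 and 293 at 13.5 dpc. Set B gave 96.6 and 88.3, 535 and 490, 188 and 284, and 134 and 132. Set C, whose probes are shared by several transcripts, gave 6.28 and 2.06, 456 and 332, 175 and 90.3, and 21.2 and 8.36. In all 3 sets the cerebellum arrays were the highest. Cortex was dim in each, as was 13.5 dpc in B and C and 15.5 dpc in C, so no order is read among those contexts. Against cortex, cerebellum was at least 1.995-fold higher in set A, 2.20-fold in B and 1.67-fold in C.

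C1ql2, a secreted C1q-like protein of synapses rather than a transcription factor, read 261 and 76.2 in cortex, 1329 and 1258 in cerebellum, 241 and 92.3 at 15.5 dpc, and 130 and 96.7 at 13.5 dpc. Only the cerebellum arrays stood out, and the other 6 overlapped across contexts. Cortex minus cerebellum was -2.70 ± 0.31 on the log2 scale.

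Counted over the members, cerebellum arrays lay above both cortex arrays in 11 of 12 probe sets, where 21.4% of all tested sets did so. The choice of genes used this contrast, and nothing is read from the count. In bulk RNA, fewer cells of a type and less RNA per cell cannot be told apart.

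Over the 8 arrays, Pearson's r between log2 signals of different members ran from -0.243 to 0.993 with a median of 0.738 over 61 pairs of probe sets. Tfap2b and Pax7 gave the highest value. Zic1 reached at most 0.767, with Lhx9 A, and fell below 0 with Tfap2b, Shox2 and Cnpy1 A. Sets of the same gene correlated at 0.893 for Pou4f1, 0.815 for Lhx9 and 0.740 to 0.943 for Cnpy1. These values describe 8 arrays that share 4 contexts.

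The genes most like each member were taken by the same measure, over 8 arrays. After Pax7, Tfap2b was nearest to Aldoa (r = 0.956), a glycolytic enzyme, and Tmem241 (0.949), while Pax7 was nearest, after Tfap2b, to Tmem241 (0.960) and Plcxd1 (0.932). For Pou4f1 these were Crh (0.965), the corticotropin-releasing hormone, Plcxd1 (0.960) and Rps6ka6 (0.958). For Shox2 they were Tmem241 (0.965), Zfhx4 (0.952), a zinc finger homeodomain factor, and Pax3 (0.938), the nearest relative of Pax7. Lhx9 was closest to Fundc1 (0.962), Wdr37 (0.957) and Epb41l5 (0.948), and Zic1 to Bmt2 (0.966), Maip1 (0.962) and Tasor (0.958). Cnpy1 had the lowest values, with Stk33 (0.912), Tstd3 (0.904) and Rtel1 (0.901). C1ql2 was closest to Insyn2b (0.977), Fbxl4 (0.954) and Hcrtr1 (0.948), an orexin receptor. Hcrtr1 read 396 and 479 in cerebellum and between 42.4 and 69.5 on the other 6 arrays.

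The parental duplications were compared within each context. At 15.5 dpc most members read lower on the paternal-7 array: Pax7 at 141 against 507, Tfap2b at 1036 against 2467, and Pou4f1 A at 255 against 584. The log2 differences at that age, with 1 array on each side, were -1.50 for Pax7, -1.21 for Tfap2b, -1.03 for Pou4f1 A, -0.99 for C1ql2 and -0.76 for Shox2. Cnpy1 did not share the direction in all its sets, with 0.01 in A, 0.47 in B and -0.65 in C. At that age C1ql2 and Cnpy1 C were dim on both arrays. Described alongside, Lhx9, which this contrast chose, differed by -1.62 in set A and -1.68 in set B, and Zic1 by -0.70.

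Among the 9 sets of region-chosen genes, 7 were lower on the paternal-7 array at 15.5 dpc, with a median log2 difference of -0.76. Over all tested sets the median was 0.03, the SD 0.576 and 47.3% were lower. A difference of at least 2-fold toward lower paternal-7 signal occurred in 3 of the 9, where 4.44% of all tested sets had one. This pair of arrays was also the least alike of the 4 pairs, and there is no replicate check of a single pair.

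**Figure D2:**
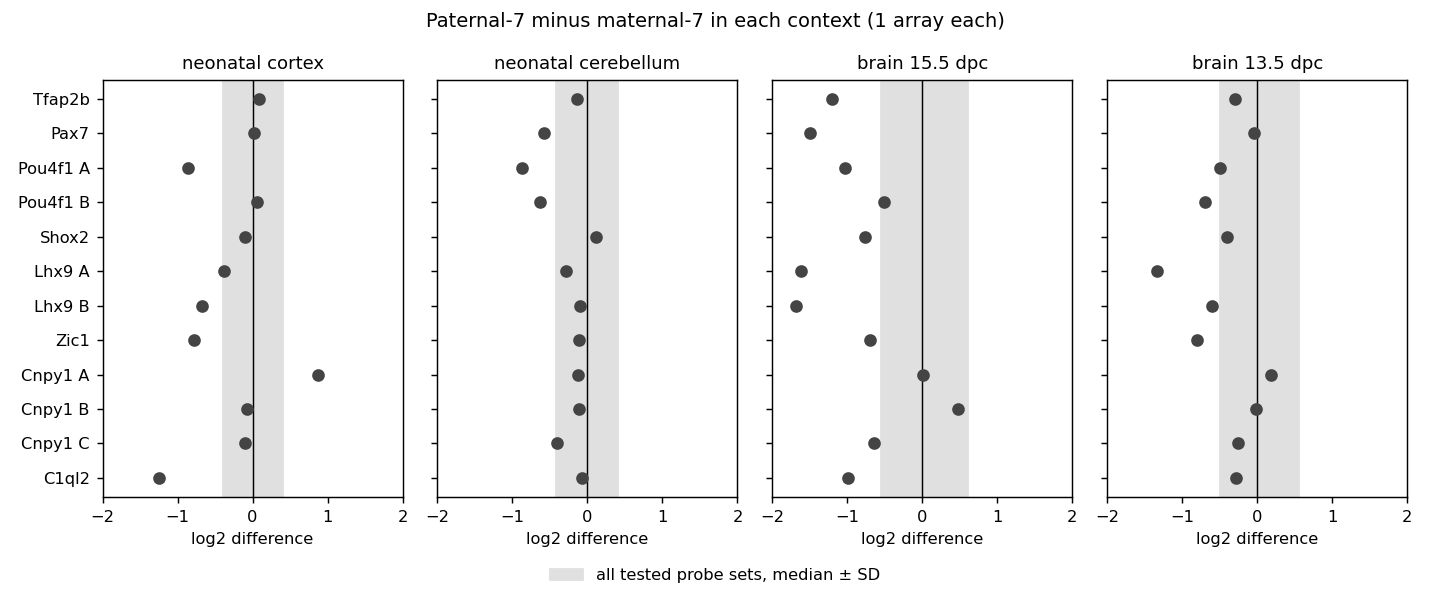
Log2 difference, paternal-7 minus maternal-7, of each probe set in each context (points, 1 array on each side), with a grey band for the median ± SD of all tested probe sets. At 15.5 dpc 7 of the 9 points of region-chosen genes lie below 0 with a median of -0.76, and their medians in the other contexts run from -0.28 to -0.08. Lhx9 and Zic1 were chosen on this difference.

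In the other contexts the medians of these 9 sets were nearer to 0. The median was -0.08 in cortex with 5 of 9 lower, where 49.5% of all tested sets were lower. In cerebellum it was -0.14 with 8 of 9 lower (50.8% of all tested sets), and at 13.5 dpc -0.28 with 8 of 9 lower (46.7%). Tfap2b differed by 0.09 in cortex, -0.14 in cerebellum and -0.29 at 13.5 dpc, and Pax7 by 0.02, -0.58 and -0.04. The Tfap2b and Pax7 differences at 15.5 dpc were therefore larger than at any other context. Pou4f1 A kept its direction everywhere, at -0.87 in cortex, -0.87 in cerebellum and -0.50 at 13.5 dpc, but set B of the same gene gave 0.07 in cortex, -0.63 in cerebellum and -0.70 at 13.5 dpc. C1ql2 differed by -1.24 in cortex, where it read 76.2 against 261, and by -0.08 in cerebellum.

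Fitted over the 4 contexts together, no probe set of the region-chosen genes passed the test. At an adjusted p under 0.05 in limma, with Benjamini-Hochberg adjustment over 13221 probe sets, 0 of 9 were called, where 0.00756% of all tested sets (1 of 13221) were. At an unadjusted p under 0.05 there were 4 of 9, and 1147 over all tested sets. Pou4f1 A had the largest difference of the 9, -0.82 ± 0.14 (SE, 4 arrays each; limma adjusted p = 0.532), lower in 4 of 4 contexts. C1ql2 followed at -0.65 ± 0.22 (limma adjusted p = 0.546), also lower in 4 of 4. Only in cerebellum was C1ql2 above the median on both arrays, and there it differed by -0.08. Pax7 gave -0.53 ± 0.26 (limma adjusted p = 0.591) and Tfap2b -0.39 ± 0.22 (limma adjusted p = 0.627), each lower in 3 of 4 contexts. The remaining 5 sets lay between -0.44 ± 0.17 for Pou4f1 B and 0.24 ± 0.19 for Cnpy1 A. Lhx9, at -0.91 ± 0.26 in set A and -0.76 ± 0.25 in set B, and Zic1, at -0.60 ± 0.16, are given without a test.

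Of the 12 probe sets, 6 were lower in paternal-7 in 4 of 4 contexts: Pou4f1 A, Lhx9 A, Lhx9 B, Zic1, Cnpy1 C and C1ql2. Of the 9 region-chosen sets these were 3, or 33.3%, where 9.08% of all tested sets had that pattern. Cnpy1 C, 1 of the 3, was dim on every array outside cerebellum. C1ql2 was dim on all embryonic arrays and on the paternal-7 cortex array. Pou4f1 A was dim on both cortex arrays and on the paternal-7 array of each embryonic age. Other sets of the same genes did not share the pattern: Cnpy1 A was lower in 1 of 4 contexts, and Cnpy1 B and Pou4f1 B in 3 of 4. Whether the duplication effect differed between neonatal and embryonic contexts was tested with an interaction term. In limma 0 of 12 members were called, where 0% of all tested sets were, with 1 member and 1209 tested sets at an unadjusted p under 0.05. That member was Lhx9 A, whose deficit was smaller in neonates by 1.15 ± 0.25. Lhx9 and Zic1 were chosen on the duplication difference that this term divides by stage, so nothing is read from their interaction values.

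Other gene groups were read on the same arrays at 15.5 dpc, without a test, where 47.3% of all tested sets were lower in paternal-7. Of the listed genes measured, 6 of 7 of the dorsal midbrain were lower in paternal-7, with summed signals of 15116 in maternal-7 and 12699 in paternal-7, and 8 of 12 of the rhombic lip and cerebellar neurons (21046 and 19892). Of the thalamus and habenula genes 7 of 10 were lower (10185 and 9049). These lists share genes, so their counts and sums are not separate readings. Meis2, at 5140 in maternal-7 and 3562 in paternal-7, was in the midbrain and rhombic lip lists. Its gap was larger than that between the rhombic lip sums. The thalamus list shared Rora and Foxp2 with the rhombic lip list, and Lef1 and Nr4a2 with the midbrain list. Among isthmic genes 3 of 9 were lower, and among hindbrain segment genes 3 of 8. Cranial sensory ganglion markers were lower for 5 of 5, with sums of 2018 and 1460, and over the 4 contexts their sums ran from 1655 to 2372 in maternal-7 and from 1453 to 2164 in paternal-7. Of this list Runx1 was dim on all 8 arrays. Choroid plexus markers were lower for 3 of 3 at 15.5 dpc (58548 and 50653) and again at 13.5 dpc (37443 and 24815). Forebrain markers were lower for 3 of 7 at 15.5 dpc, and craniofacial mesenchyme markers for 1 of 5. Skeletal muscle markers were lower for 0 of 3, and meningeal markers for 1 of 3, which was the member Zic1. Among these muscle and meningeal markers, all but Ttn and Zic1 were dim on both 15.5 dpc arrays, so little is read from the counts. The part of any of these groups in the member differences was not tested.

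Between the embryonic ages, Shox2 was lower at 15.5 than at 13.5 dpc, and Lhx9 and Zic1 read higher at 15.5 dpc. Only 1 of the 12 probe sets passed the test, where 6.59% of all tested sets did. That set was Cnpy1 C, at 1.35 ± 0.20 on the log2 scale (SE, n = 2 arrays each; limma adjusted p = 0.0216). All 4 of its embryonic signals were dim, so no fold is given. The call was lost when any 1 of the 8 arrays was left out. At an unadjusted p under 0.05 there were 6 of 12, and 23.0% of all tested sets (3046).

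Shox2 fell short of the threshold at -1.02 ± 0.25 (limma adjusted p = 0.0617), with both 13.5 dpc arrays above both 15.5 dpc arrays. It passed after quantile normalization (-1.14, limma adjusted p = 0.0398) and under the strict filter (limma adjusted p = 0.0318). It was the only member separated in that direction, 1 of 12, where 24.1% of all tested sets were. Craniofacial mesenchyme is a tissue around the brain in which Shox2 and Tfap2b are also known. Of its 5 tested markers, 4 were higher at 13.5 than at 15.5 dpc, and Prrx1 alone read 2646 and 2759 at 13.5 dpc. The 5 of 15 measured summed to 5120 and 5602 at 13.5 dpc and to between 1247 and 1469 at 15.5 dpc, and no larger than 1114 in neonates. Alx1 (-3.03 ± 0.22), Prrx1 (-2.90 ± 0.23) and Hand2 (-1.43 ± 0.24) were lower at 15.5 dpc, each called in limma. Alx1 was above the array median only on its 13.5 dpc arrays, so nothing is read from its call. Msx2 (-0.62 ± 0.29) did not pass, and Dlx4 differed in the other direction (0.44 ± 0.21), also without passing. The part of these markers' tissue in the Shox2 and Tfap2b signals was not tested.

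Both 15.5 dpc arrays exceeded both 13.5 dpc arrays in 5 of 12 sets, where 22.5% of all tested sets did so. These were Lhx9 B (1.32 ± 0.36, limma adjusted p = 0.0797), Zic1 (0.77 ± 0.23, limma adjusted p = 0.104) and Cnpy1 A, B and C. Cnpy1 A differed by only 0.16 ± 0.27 (limma adjusted p = 0.777). Cnpy1 B was dim on both 13.5 dpc arrays and Cnpy1 C at both ages, so no order of the ages is read for Cnpy1. Lhx9 B was dim on both 13.5 dpc arrays, which gives at least 1.22-fold. Tfap2b (-0.39 ± 0.32) and Pax7 (-0.25 ± 0.37) did not separate the ages, and without the paternal-7 array at 15.5 dpc their differences were 0.15 and 0.40.

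**Figure D3:**
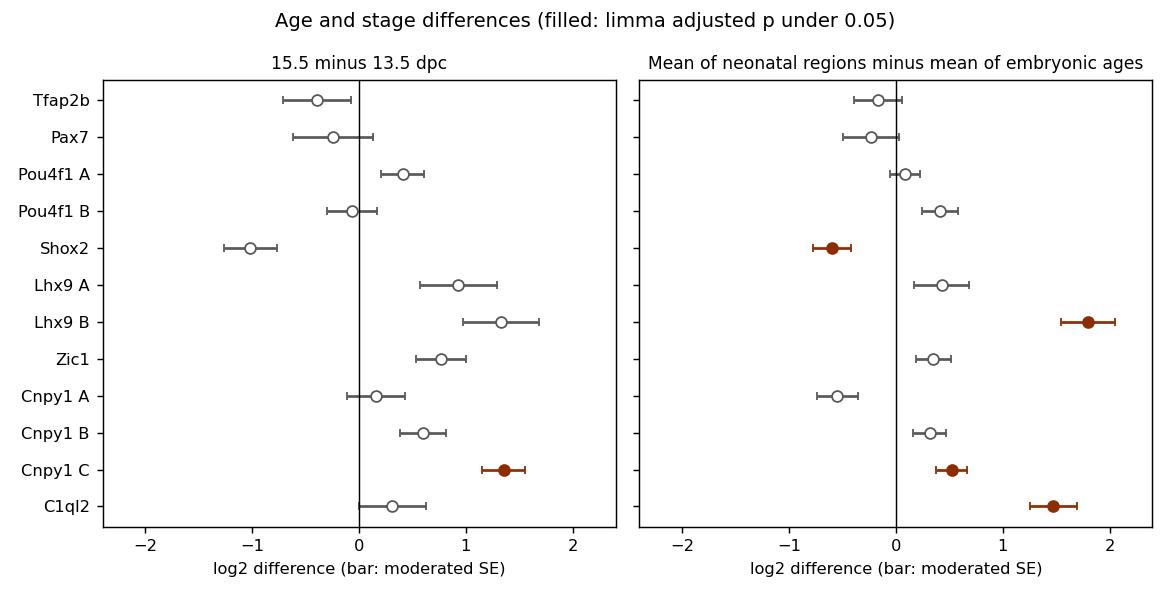
Log2 differences of the 12 probe sets (points) with moderated SE (bars), 15.5 minus 13.5 dpc on the left and the mean of both neonatal regions minus the mean of both embryonic ages on the right, filled where the limma adjusted p was under 0.05. Cnpy1 C is filled on both sides, and Shox2, Lhx9 B and C1ql2 on the right.

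Neonatal regions were compared with embryonic whole brain as the mean of cortex and cerebellum against the mean of both ages. Age and the tissue sampled changed together in this comparison, so their parts cannot be told apart. For it, rose and fell give only the direction of the difference between these arrays. Lhx9 B and C1ql2 rose, by 1.80 ± 0.25 (SE, 4 arrays each; limma adjusted p = 0.00362) and 1.47 ± 0.22 (limma adjusted p = 0.00461). C1ql2 was above the array median on 3 arrays, all of them neonatal. It had entered the test only through the side where it read high, so nothing is read from its call. Shox2 fell, at -0.60 ± 0.18 (limma adjusted p = 0.0428). Cnpy1 C was also called, at 0.52 ± 0.14 (limma adjusted p = 0.0356), but it had entered the test only through its cerebellum arrays. Its sign turned when signals were floored at 1 and no pseudocount was added (-0.13) and with cortex alone as the neonatal side (-0.90), so no rise is read from it. These 4 of 12 calls compare with 30.7% of all tested sets. The neonatal mean holds the arrays on which the genes were chosen by region, so the calls are not independent of that choice.

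None of the 12 had all 4 neonatal arrays on one side of all 4 embryonic arrays, where 28.4% of all tested sets did. C1ql2 was dim on all embryonic arrays and passed the filter only through neonatal ones, so no fold is given. Its cortex signals of 261 and 76.2 overlapped the embryonic ones. With cortex alone as the neonatal side C1ql2 differed by 0.12. Set A of Lhx9 gave 0.43 ± 0.26 (limma adjusted p = 0.231), so the sets of Lhx9 disagreed on the call. The Shox2 call was lost under median centring (-0.39, limma adjusted p = 0.190), with signals floored at 1, without the filter and without the duplication term (limma adjusted p from 0.0529 to 0.0766). It was also lost without any 1 array except the paternal-7 array at 15.5 dpc, and the Cnpy1 C call without any 1 except the maternal-7 array at 15.5 dpc.

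The sign of several members turned on the neonatal region, given here without a test because the region contrast chose these genes. Against embryonic brain, cerebellum alone was higher by 1.88 for Tfap2b and 1.70 for Pax7, while the averages over both regions were -0.17 ± 0.22 and -0.23 ± 0.26. Cortex alone gave -1.14 for Pou4f1 A, against an average of 0.08 ± 0.14. Over all tested sets this comparison also shifted with scaling: the median was -0.16 as deposited, -0.06 after quantile normalization and 0.03 after median centring. Of 4055 calls 46.5% were higher in neonates, against 54.7% and 71.1% under those scalings.

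Listed genes of the same territories were read against that shift, by counts called in limma. In the hindbrain segment list, 8 of 35 genes were tested. Of these, 5 were lower in the neonatal regions than in embryonic whole brain and 0 were higher. The list's median was -0.72, against -0.16 over all tested sets. Hoxd8 (-1.71 ± 0.25) and Hoxa5 (-1.63 ± 0.22), which give hindbrain and spinal segments their identity, changed most among the called genes, followed by Hoxd3 (-0.76 ± 0.18). Hoxb3 gave -1.22 ± 0.40 without passing (limma adjusted p = 0.0574). Hoxa5 read between 738 and 954 on embryonic arrays and between 176 and 470 on neonatal ones, without overlap. Hoxd8 read between 199 and 755 and between 19.4 and 129, also without overlap. Its signals at 15.5 dpc and in neonates were all dim. Hoxd8 had thus entered the test only through its 13.5 dpc arrays, and nothing is read from its call. Under quantile normalization or median centring 3 of the 5 calls were made, and Hoxd3 was not among them (limma adjusted p = 0.0629 and 0.0659). The count was 2 without the paternal-7 cortex array, and 3 without the maternal-7 array of cortex, cerebellum or 13.5 dpc or the paternal-7 array at 15.5 dpc.

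Relatives of the members moved in both directions. Of 6 tested in a list of 22, Cbln2 (1.09 ± 0.14) and Cbln4 (1.02 ± 0.19), cerebellins of the same secreted C1q-like family as C1ql2, rose in neonates. Pax3 (-1.09 ± 0.19), Cnpy4 (-0.94 ± 0.15) and Cnpy2 (-0.57 ± 0.13) fell, though Cnpy2 lost its call under median centring (limma adjusted p = 0.0855). The list's median was -0.20, and 3 to 5 of its calls were made with an array left out, 3 without the paternal-7 cortex array. Cbln2 read 3655 and 4449 in cerebellum, 1791 and 2016 in cortex, and between 913 and 1676 in embryonic brain. Pax3 read 16.7 and 23.0 in cortex and between 127 and 392 elsewhere, and in cortex minus cerebellum it gave -1.86 ± 0.26 (limma adjusted p = 0.0586).

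**Figure D4:**
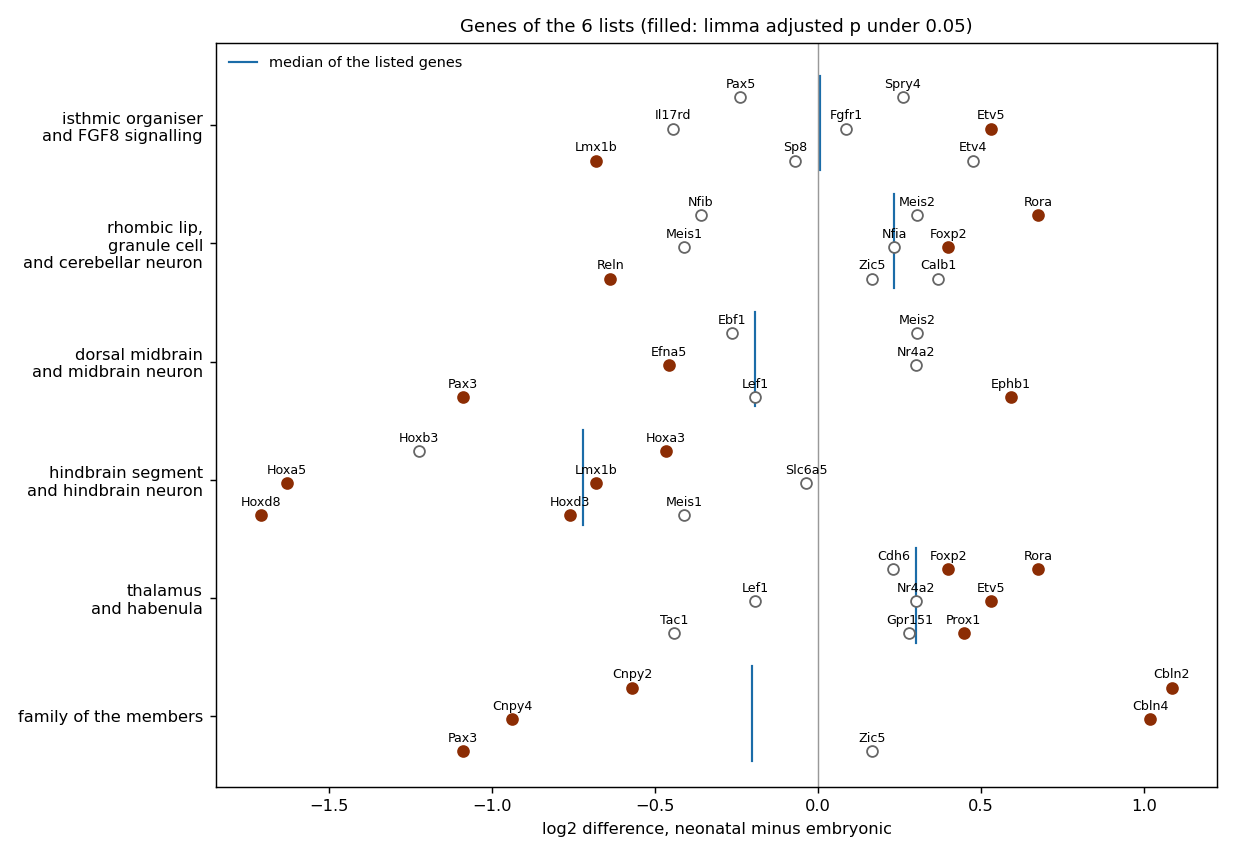
Log2 difference, neonatal minus embryonic, of the tested genes of 6 lists, 1 probe set per gene, with a vertical line at each list's median and filled points where the limma adjusted p was under 0.05. All 8 hindbrain segment genes lie below 0, with a list median of -0.72, and thalamic genes have a median of 0.30.

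The other lists held few measured genes. In the isthmic list 8 of 23 were tested, Etv5 (0.53 ± 0.14), an FGF-responsive factor, rose and Lmx1b (-0.68 ± 0.13) fell, with a median of 0.01. In the rhombic lip and cerebellar list 9 of 36 were tested, with a median of 0.23. There Rora (0.68 ± 0.14), a nuclear receptor of Purkinje cells, and Foxp2 (0.40 ± 0.12) rose and Reln (-0.64 ± 0.19), the secreted guide of migrating neurons, fell. Foxp2 lost its call under quantile normalization, and Reln under both other scalings. In the dorsal midbrain list 7 of 24 were tested. Ephb1 (0.59 ± 0.13) rose, and Pax3 and Efna5 (-0.46 ± 0.13) fell, with a median of -0.19, the Ephb1 call being lost under quantile normalization and the Efna5 call under median centring. In the thalamus and habenula list 9 of 21 were tested and 4 rose, among them Rora, Etv5 and Prox1 (0.45 ± 0.13), with none falling and a median of 0.30. Foxp2, the fourth, passed narrowly (limma adjusted p = 0.04999). With an array left out, the counts ran from 0 to 2 in the isthmic and rhombic lip lists, 1 to 2 in the midbrain list and 0 to 3 in the thalamic list. Each was lowest without the paternal-7 cortex array, which the maternal-7 cerebellum array matched except in the isthmic list.

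Across the other contrasts these lists had few calls. Between the embryonic ages Efna5 (-0.99 ± 0.18, limma adjusted p = 0.0304) and Lef1 (-0.90 ± 0.20, limma adjusted p = 0.0470) were lower at 15.5 dpc, both calls being lost when any 1 of the 8 arrays was left out. The isthmic, rhombic lip, hindbrain and family lists had 0 calls. The largest differences without a call were Il17rd at -1.22 ± 0.32 in the isthmic list and Hoxd8 at -1.37 ± 0.35 in the hindbrain list. None of the 6 lists had a call between the duplications, where Etv4 at 1.04 ± 0.37 differed most, or between cortex and cerebellum, where Pax3 and then Slc6a5 (-1.77 ± 0.53), the glycine transporter of hindbrain neurons, differed most.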

How the data were processed

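RNA of 8 brain samples was labelled from 9 µg of total RNA, per the labels' protocols, and hybridised to 1 array each. The authors deposited linear signal intensities from MAS5, per the submitters' processing notes, which name no version. The mean between the 2nd and 98th percentiles was 499.9 on every array, so no further scaling was applied. MAS5 works array by array, and low signals are noisy. No detection calls were used.

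The 64 control probe sets were left out. Genes were named through the platform annotation (14661 probe sets with 1 symbol, 245 with several, 7605 with none). Probe sets above the array median on at least 2 of 8 arrays were kept (58.7%). Log2(signal + 58.5), the pseudocount being the median 20th percentile, was fitted with limma 3.58.1 (R 4.3.3) by context and duplication, leaving 3 residual degrees of freedom, or 2 with the interaction. P-values were adjusted over all tested sets by Benjamini-Hochberg, with a threshold of 0.05. "At least" folds apply where 1 side lies below the array median on every array: that side is set to the medians, the other keeps its measured signals, and geometric means are compared. Depth has no meaning for arrays, and their number limits the precision. The fit was tested on simulated data. Members, lists and promoter words were chosen with earlier results of these data known, and support nothing independently. Beside the members, the text names for each member the 3 genes of highest correlation, and for each list up to 3 called genes in each direction, or otherwise those that differed most. A search of protein sequences was planned but a protein table was not used here. Alternatives were quantile normalization, median centring, pseudocounts, filters, subsets of contexts and leaving out each array.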

Additional observations from a re-analysis of the deposited data

How the results depend on the processing

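Of 517 tested member differences under the alternatives, 453 kept their direction and side of the threshold, 32 lost a call, 9 gained one and 23 changed sign. None of the 9 sets of region-chosen genes was called between the duplications in any setting run. Lhx9 and Zic1 were not tested in that comparison. Between the ages, the count of 1 became 2 after quantile normalization, 0 without a filter or with embryonic arrays only, and 0 with any array left out. Between neonate and embryo, the count of 4 became 2 with a floor of 1, without a filter or without the duplication term, 1 under the strict filter, and 2 to 3 with an array left out. It was 8 with cerebellum only and 7 with cortex only as the neonatal side, counts that rest on the arrays that chose 6 of the genes and support nothing. The 11 sets higher in cerebellum became 3 under the strict filter, which tests fewer sets, and 11 to 12 with an array left out. Between neonate and embryo, signs turned with cerebellum only for Tfap2b (1.88), Pax7 (1.70), Shox2 (0.60) and Cnpy1 A (0.58), and with cortex only for Pou4f1 A (-1.14), Pou4f1 B (-0.31), Lhx9 A (-0.15), Cnpy1 B (-0.64) and Cnpy1 C (-0.90). They also turned with median centring for Tfap2b (0.0378) and with a floor of 1 for Pou4f1 A (-0.0304) and Cnpy1 C (-0.13). With arrays left out, the ranges that crossed 0 were -0.44 to 0.11 for Tfap2b, -0.56 to 0.0914 for Pax7 and -0.0220 to 0.19 for Pou4f1 A in that comparison, -0.94 to 0.15 for Tfap2b, -0.90 to 0.40 for Pax7 and -0.23 to 0.10 for Pou4f1 B between the ages, and -0.0701 to 0.13 for Cnpy1 B between the duplications. In neonatal contexts only, the duplication differences of Cnpy1 B (-0.10) and Shox2 (0.00512) changed sign. Apart from these constructions, the cause was not tested. Signals near or below the array median limit Cnpy1, C1ql2 and the cortex values of Pax7 and Pou4f1. The context term pairs the arrays of each context, and the labels give no replicate numbers for a further block.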
